A study of Mus musculus with 6 samples.

Results

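The 10 genes described here encode enzymes of branched-chain amino acid (BCAA) breakdown: Bcat2, Bckdha, Bckdhb, Dbt, Ivd, Mccc1, Mccc2, Auh, Hibch and Hibadh. They were listed by function, and they and the other gene lists below were chosen with earlier results of these data known. Shares of all genes given beside their counts are therefore a description and no independent test. Each of the 10 was found by its mouse symbol among the 33184 genes of the deposited expression table. All 10 had a mean of at least 0.5 FPKM (fragments per kilobase of transcript, relative to the mapped reads of each library) over the libraries and were among the 16005 genes tested. In skin wounds of diabetic mice, 9 of the 10 transcripts had lower mean levels in the libraries labelled SFRP2-siRNA than in the control libraries. None of them passed the adjusted threshold of the comparison.

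Leucine, isoleucine and valine, the branched-chain amino acids, are broken down in mitochondria. BCAT2 first removes the amino group, and the branched-chain keto acid dehydrogenase complex (BCKDH) then removes a carboxyl group in a step that cannot be reversed. After that the routes part: leucine yields acetyl-CoA and acetoacetate, valine yields propionyl-CoA, and isoleucine yields both acetyl-CoA and propionyl-CoA. Skeletal muscle and adipose tissue are known sites of this breakdown, and circulating levels of these amino acids are raised in obesity and insulin resistance.

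All libraries came from db/db mice (genotype given as dbdb), a line that lacks a working leptin receptor and becomes obese and diabetic. A round wound 6 mm across was cut through epidermis and dermis, and at dpi1 (the number counts days post-injury) an siRNA was injected around it. There were 3 libraries labelled NC, whose mice received NC-siRNA, a negative control, and 3 labelled SFRP2-siRNA, whose siRNA was directed at the secreted frizzled-related protein SFRP2. Wound tissues of both groups were taken at dpi4, although the sample titles carry D3, and the age of the mice was not given. The injection was not restricted to a cell type, and the tissue was sequenced whole, so that fewer cells of a type and less RNA per cell cannot be told apart. The labels do not say that each library was a separate animal, so the p-values measure the spread between these libraries, which need not be that between animals. Within a group, read counts differed by more than read sampling gives (chi-square per degree of freedom 115 to 342). The source of that spread was not tested. The treated libraries are numbered like the siRNA sequences of the study, and it is not stated whether each received its own sequence.

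Read totals recovered from the FPKM values were 45.6 ± 1.38 M in NC and 45.1 ± 2.10 M in SFRP2-siRNA (M, the prefix mega, SD, n = 3 each). The targeted transcript, Sfrp2, had 11.6, 40.6 and 14.1 FPKM in NC 1, 2 and 3 and 50.6, 54.6 and 55.2 FPKM in SFRP2-siRNA 1, 2 and 3. It was thus higher in every library labelled SFRP2-siRNA (log2 fold change 1.45, SE 0.43, exact permutation p = 0.1, limma adjusted p = 0.518), so the labels name the groups below without standing for a lower Sfrp2 level. Whether any labels were exchanged could not be settled from the values, and an exchange of the groups would turn every direction given below. Libraries called treated are those labelled SFRP2-siRNA. Fold changes throughout are on the log2(FPKM + 1) scale, SFRP2-siRNA minus NC, and their median over all genes tested was 0.13. Skin and wound cell markers were present, with Krt14, a basal keratinocyte keratin, at a mean of 2296 FPKM in NC.

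Promoter sequence of 3 of the genes is shown because they include both subunits of 1 enzyme, Mccc1 and Mccc2, and the gene with the pattern least like the others, Bcat2. Each run is the 250 bases before the transcription start of the RefSeq annotation (GRCm38.p6), read 5′ to 3′ on the strand of the gene. The positions are chr3:36000679-36000928 (minus strand) for Mccc1, chr13:100015640-100015889 (minus strand) for Mccc2 and chr7:45569903-45570152 (plus strand) for the first of the Bcat2 starts. Capitals mark matches to the CCAAT box (CCAAT), the GC box (GGGCGG) and the E-box (CACGTG) on either strand.
Mccc1: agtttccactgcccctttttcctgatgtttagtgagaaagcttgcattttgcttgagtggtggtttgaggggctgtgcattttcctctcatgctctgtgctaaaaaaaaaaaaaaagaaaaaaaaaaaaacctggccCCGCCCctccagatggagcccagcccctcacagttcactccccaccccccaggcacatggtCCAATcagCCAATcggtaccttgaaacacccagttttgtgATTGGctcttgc
Mccc2: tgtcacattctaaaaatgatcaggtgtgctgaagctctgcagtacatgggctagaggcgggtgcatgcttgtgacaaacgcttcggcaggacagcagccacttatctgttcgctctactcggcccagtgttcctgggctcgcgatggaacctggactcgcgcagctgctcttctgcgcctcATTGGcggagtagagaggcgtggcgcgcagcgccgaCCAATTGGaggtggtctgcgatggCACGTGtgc
Bcat2: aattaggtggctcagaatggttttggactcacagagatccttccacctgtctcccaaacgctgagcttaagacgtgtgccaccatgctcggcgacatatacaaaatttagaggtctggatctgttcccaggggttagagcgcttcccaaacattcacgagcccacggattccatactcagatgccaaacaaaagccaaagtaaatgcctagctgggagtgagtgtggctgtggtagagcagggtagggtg

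The Mccc1 window held 3 CCAAT matches and 1 GC box, and the Mccc2 window held 3 CCAAT matches, of which a pair overlaps on opposite strands, and 1 E-box. Neither Bcat2 window held any of these motifs. RefSeq promoters were matched for 9 of the 10 genes, as 11 windows of 36.4% to 68.0% GC beside a median of 52.4% over 32851 promoters. CCAAT was found in 5 of the 11 windows (33.8% of all promoters), the GC box in 5 (32.7%), and the E-box in 1 (6.02%). TATAAA (12.4% of all promoters), the NRF1 core motif (0.782%) and AAGGTCA, a nuclear receptor half-site (4.08%), were in none of the 11. A match describes letters only, and no binding was measured.

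The comparison between the groups asked whether transcripts of the pathway differed between wounds given SFRP2-siRNA and wounds given NC-siRNA. A negative log2 fold change was found for 9 of the 10, beside 28.2% of all genes tested, and a positive one for 1, beside 71.8%. For 7 of the 10 every treated library lay below every NC library, beside 3.92% of all genes. No member was higher in every treated library, beside 13.9% of all genes. With limma, 0 of the 10 and 0 of the 16005 genes had an adjusted p under 0.05, and the smallest adjusted p of any gene was 0.518. At an unadjusted p under 0.05, 5 of the 10 were lower (2.86% of all genes) and 0 were higher (6.72% of all genes). The median log2 fold change of the 10 was -0.44, a difference of -0.57 from the median of all genes. Rescaling the libraries to equal summed FPKM left 4 of the 10 without overlap (2.8% of all genes) and 2 at an unadjusted p under 0.05 (1.92%). Without the mitochondrially encoded genes in the scaling 7 were lower without overlap (5.9% of all genes), with median-of-ratios scaling 8 (7.67%) and with quantile normalization 6 (6.37%). On recovered reads, limma voom gave 6 of the 10 lower at an unadjusted p under 0.05 (2.86% of all genes) and 0 higher (6.87%).

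**Figure D1:**
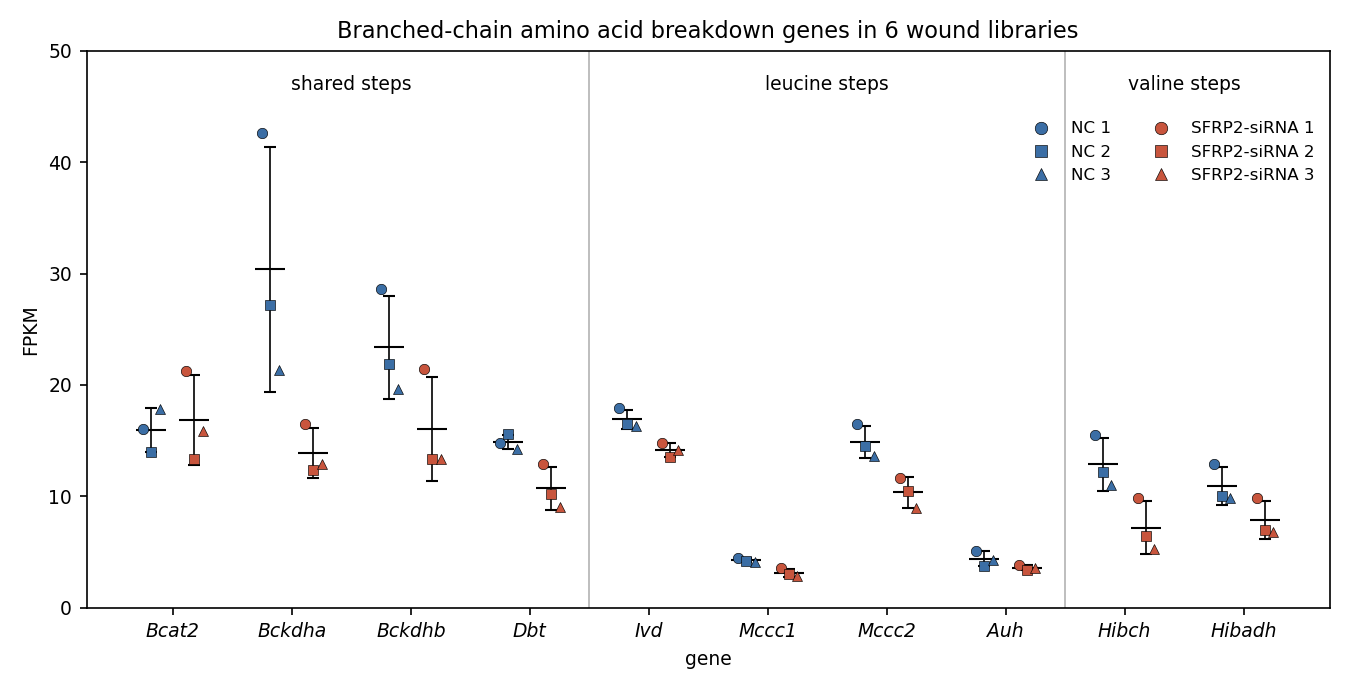
FPKM of each of the 10 genes by library, with NC in blue and SFRP2-siRNA in red, each symbol 1 library and each black line a group mean with its SD. Bckdha shows the widest gap between means, 30.4 against 13.9 FPKM, and Bcat2 is mixed between the groups.

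The shared steps come first. Bckdha encodes the E1 alpha subunit of BCKDH, part of the component that carries out the decarboxylation. The gene (chr7:25629946-25658981, minus strand, GRCm38) had 42.6, 27.2 and 21.4 FPKM in NC 1, 2 and 3. The treated libraries had 16.5, 12.4 and 12.9 FPKM. Every treated library was thus below the lowest NC library, by at least 4.84 FPKM, and NC 1 stood well above the other NC libraries. Bckdha averaged 30.4 ± 11.0 FPKM in NC and 13.9 ± 2.24 FPKM in SFRP2-siRNA (SD, n = 3 each), the treated mean being 45.8% of the control mean. The log2 fold change was -1.03 (SE 0.26, 95% interval -1.65 to -0.40), the lowest of the 10, with a limma unadjusted p of 0.00616 and an adjusted p of 0.518. Of all genes tested, 1.07% had a log2 fold change at or below it. On the annotation, 61.7% of the Bckdha exon bases are shared with B3gnt8 on the opposite strand, whose level was 2.02 to 3.28 FPKM, and since strand handling in counting was not stated, reads of the pair cannot be told apart there.

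Bckdhb encodes the E1 beta subunit, which pairs with E1 alpha. Its values were 28.6, 21.9 and 19.7 FPKM in NC and 21.5, 13.3 and 13.4 FPKM in SFRP2-siRNA. SFRP2-siRNA 1 lay within the NC range, and the other treated libraries lay below it. The treated mean was 68.6% of the control mean, with a log2 fold change of -0.53 (SE 0.23, interval -1.09 to 0.02).

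Dbt, the E2 core of the complex, differed less among the NC libraries than any other shared-step gene. It had 14.8, 15.6 and 14.2 FPKM in NC 1, 2 and 3 and 12.9, 10.2 and 9.09 FPKM in SFRP2-siRNA 1, 2 and 3. No treated library reached the NC range. The log2 fold change was -0.45 (SE 0.15, interval -0.81 to -0.09), with a limma unadjusted p of 0.0221 and an adjusted p of 0.518.

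Bcat2, the mitochondrial aminotransferase that opens the pathway, was the exception. Its levels were 16.1, 13.9 and 17.9 FPKM in NC and 21.2, 13.3 and 15.9 FPKM in SFRP2-siRNA, so that the highest and the lowest of the 6 values were both in treated libraries. Bcat2 averaged 15.95 ± 1.96 FPKM in NC and 16.8 ± 4.04 FPKM in SFRP2-siRNA (SD, n = 3 each), with a log2 fold change of 0.05 (SE 0.19, interval -0.41 to 0.52). Its sign turned under several other settings, among them median-of-ratios scaling (-0.095) and leaving out SFRP2-siRNA 1 (-0.12).

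Among the 4 leucine genes, the subunits of methylcrotonyl-CoA carboxylase came next. Mccc1 encodes the subunit that carries biotin, and Mccc2 the carboxyltransferase subunit. Mccc1 had 4.45, 4.24 and 4.16 FPKM in NC and 3.54, 3.02 and 2.87 FPKM in SFRP2-siRNA. Mccc2 had 16.5, 14.5 and 13.6 FPKM in NC and 11.7, 10.4 and 8.95 FPKM in SFRP2-siRNA. In both subunits the treated libraries lay below all NC libraries, and the order of the treated libraries was the same. The treated means were 73.4% (Mccc1) and 69.6% (Mccc2) of the control means. Log2 fold changes were -0.35 (SE 0.12, limma unadjusted p = 0.0201) for Mccc1 and -0.49 (SE 0.15, limma unadjusted p = 0.0128) for Mccc2, both with an adjusted p of 0.518.

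Ivd, isovaleryl-CoA dehydrogenase, acts just before that carboxylase. It had 17.9, 16.5 and 16.3 FPKM in NC and 14.8, 13.5 and 14.2 FPKM in SFRP2-siRNA. The groups were close but did not overlap, with a log2 fold change of -0.24 (SE 0.12, limma unadjusted p = 0.0804). Auh, the hydratase that follows the carboxylase, had 5.14, 3.78 and 4.28 FPKM in NC and 3.85, 3.42 and 3.54 FPKM in SFRP2-siRNA. Its groups overlapped by 1 library on each side, NC 2 and SFRP2-siRNA 1. The log2 fold change of Auh was -0.22 (SE 0.13), and it was -0.13 without NC 1.

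The valine genes were Hibch, which releases 3-hydroxyisobutyrate from its CoA, and Hibadh, which oxidises it. Hibch (chr1:52844929-52920986, plus strand, GRCm38) had 15.6, 12.2 and 11.0 FPKM in NC 1, 2 and 3. In SFRP2-siRNA 1, 2 and 3 the values were 9.89, 6.40 and 5.32 FPKM. All treated values were below all NC values, and SFRP2-siRNA 1 was nearest to the controls. Hibch averaged 12.9 ± 2.37 FPKM in NC and 7.21 ± 2.39 FPKM in SFRP2-siRNA (SD, n = 3 each), the treated mean being 55.9% of the control mean. Its log2 fold change of -0.79 (SE 0.23, interval -1.34 to -0.23) was second to that of Bckdha, with a limma unadjusted p of 0.0127 and an adjusted p of 0.518. Hibadh had 12.9, 10.01 and 9.87 FPKM in NC and 9.86, 7.02 and 6.81 FPKM in SFRP2-siRNA. Here NC 3 and SFRP2-siRNA 1 were nearly equal, only 0.0068 FPKM apart, so the absence of overlap rests on a very small gap. The log2 fold change of Hibadh was -0.43 (SE 0.18, limma unadjusted p = 0.0509).

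By step, the median log2 fold change was -0.49 over the 4 shared-step genes, -0.30 over the 4 leucine genes and -0.61 over the 2 valine genes. These medians describe few genes and were not compared by a test. Each value rested on 1068 to 5791 reads per library over the 10 genes.

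**Figure D2:**
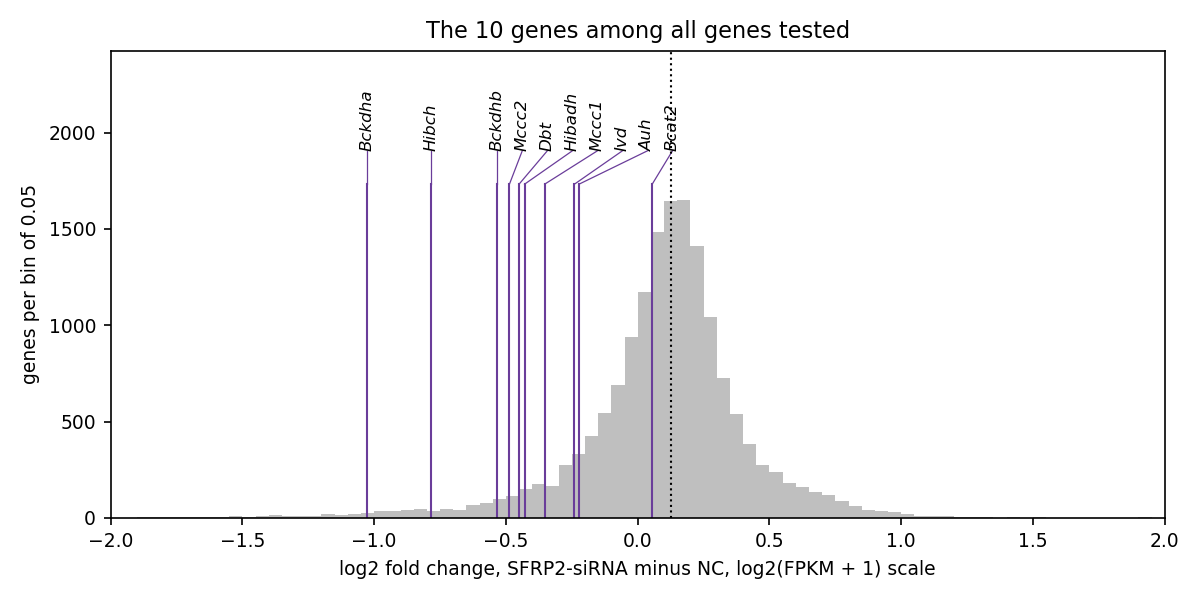
Distribution of the log2 fold change, SFRP2-siRNA minus NC on the log2(FPKM + 1) scale, over the 16005 genes tested (grey bars, bins of 0.05), with the 10 genes as purple lines and the all-gene median of 0.13 dotted. The 9 genes with a negative value stretch from Auh at -0.22 to Bckdha at -1.03, and Bcat2 sits at 0.05, also left of the median.

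The levels of the 10 also differed from each other. Over the 6 libraries, mean FPKM, which is per transcript length, ran from 22.2 for Bckdha, 19.7 for Bckdhb, 16.4 for Bcat2 and 15.5 for Ivd to 4.002 for Auh and 3.71 for Mccc1. Between them lay Dbt at 12.8, Mccc2 at 12.6, Hibch at 10.1 and Hibadh at 9.41 FPKM. Ivd was above Dbt, Mccc2 above Hibch and Hibadh above Auh in 6 of 6 libraries. The other neighbours in this order changed places in at least 1 library, Bckdha and Bckdhb in 3 of 6. Bckdha ranked 1 of 10 in each NC library and 3, 4 and 4 in SFRP2-siRNA 1, 2 and 3. Auh and Mccc1 held the lowest 2 places in every library.

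Libraries of a group were not alike. NC 1 had the highest value of all 6 libraries for 8 of the 10 genes, the exceptions being Bcat2 and Dbt. SFRP2-siRNA 1 had the highest treated value for all 10, and the lowest value of the 6 libraries was in SFRP2-siRNA 2 or 3 for all 10. With NC 1 and SFRP2-siRNA 1 left out together, 9 of the 10 were lower without overlap, every gene but Bcat2, where 12.7% of all genes tested were. Without SFRP2-siRNA 3 only 2 of the 10 were lower at an unadjusted p under 0.05 with limma (1.89% of all genes), and without SFRP2-siRNA 2 only 3 were (2.17%).

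Across the 6 libraries most members varied together. The Pearson correlation of a gene with the mean of the other 9 (log2 scale, n = 6 libraries, which share the 2 conditions and their scaling) was highest for Hibadh (0.989) and Hibch (0.988). It was 0.867 or more for each member but Bcat2, at 0.170. The same measure over 7995 genes of at least 5 FPKM outside the lists placed Acadm (0.998) and Decr1 (0.998) closest to the mean of the 10. Acadm, a medium-chain acyl-CoA dehydrogenase of fatty acid oxidation, had 153.2, 94.4 and 85.2 FPKM in NC and 76.4, 39.6 and 34.5 FPKM in SFRP2-siRNA. These correlations describe the libraries and carry no test.

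Pairs of enzymes or subunits were then compared within a library, as a log2 ratio of FPKM + 1, so that library scaling largely cancels. It cancels less at low levels, as for Ppm1k, Bcat1 and Mccc1, where the added 1 bears on the stated difference. E1 alpha and E1 beta form 1 component of BCKDH. The ratio of Bckdha to Bckdhb FPKM was 1.49, 1.24 and 1.09 in NC 1, 2 and 3 and 0.770, 0.930 and 0.964 in SFRP2-siRNA 1, 2 and 3. Bckdha was thus above Bckdhb in each NC library and below it in each treated library. The log2 ratio was 0.32 ± 0.23 in NC and -0.17 ± 0.17 in SFRP2-siRNA (SD, n = 3 each), a difference of -0.49 with an exact two-sided permutation p of 0.1. That is the smallest p for 3 against 3 libraries, and it was 0.3 when adjusted over the 4 pairs. The overlap of Bckdha with B3gnt8 bears on this ratio too, and its part was not tested.

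The ratio of Mccc1 to Mccc2 was 0.270 to 0.321 in all 6 libraries, and its log2 form differed by 0.13 between the groups (exact permutation p = 0.2, adjusted p = 0.3). Bckdk, the kinase that switches BCKDH off, over Ppm1k, the phosphatase that switches it on, differed by -0.32 (exact permutation p = 0.3, adjusted p = 0.3), and by -0.10 without NC 1. Bcat2 over Bcat1, its cytosolic counterpart, differed by -0.46 (exact permutation p = 0.3, adjusted p = 0.3), and by -0.21 without NC 3 and -0.75 without NC 2. In these 3 pairs the groups overlapped.

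**Figure D3:**
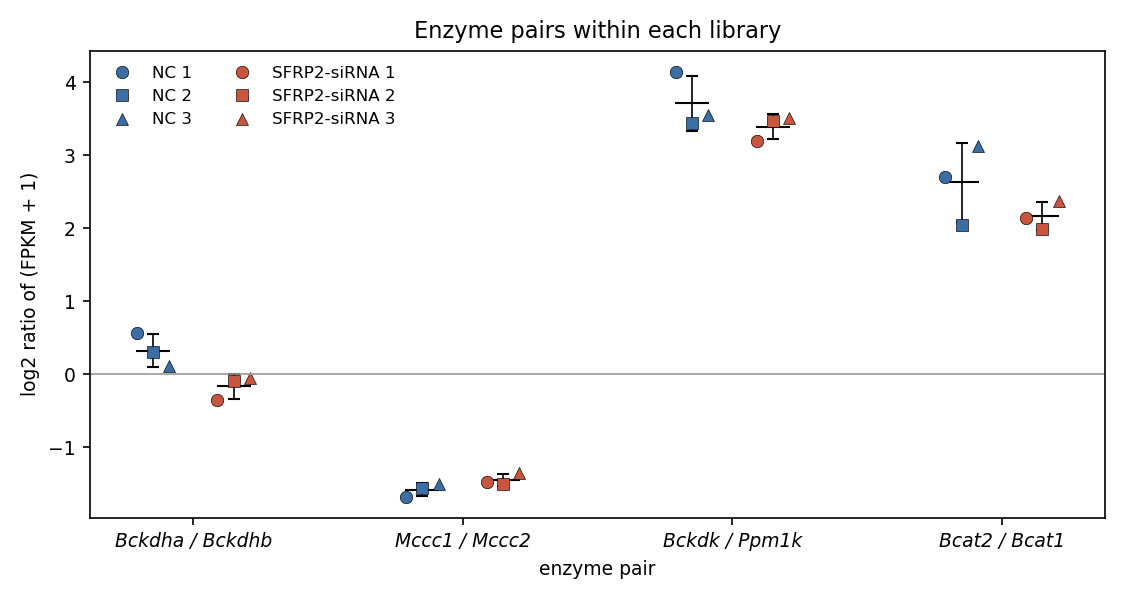
Log2 ratio of FPKM + 1 for 4 pairs of enzymes or subunits in each library, NC in blue and SFRP2-siRNA in red, with group means and SD bars in black. The Bckdha over Bckdhb ratio is above 0 in all 3 NC libraries and below 0 in all 3 treated ones, and the other pairs overlap.

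The rest of the pathway was described with a list of 32 genes, all of which were tested. Of these, 23 were lower and 9 higher in SFRP2-siRNA (28.2% and 71.8% of all genes). Without overlap 14 were lower and 3 higher (3.92% and 13.9% of all genes), and 0 passed the adjusted threshold with limma. At an unadjusted p under 0.05, 12 were lower and 0 higher (2.86% and 6.72% of all genes). Their median log2 fold change was -0.33, and it was -0.20 without NC 1.

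The 6 genes listed for the steps from propionyl-CoA to succinyl-CoA, the route taken by valine and isoleucine carbon, were all lower without overlap. Of all genes tested, 3.92% were. The median log2 fold change of the 6 was -0.45. Pcca, a subunit of propionyl-CoA carboxylase, had 16.6, 13.5 and 11.4 FPKM in NC and 8.87, 6.34 and 5.85 FPKM in SFRP2-siRNA. Its log2 fold change was -0.89 (SE 0.20, limma unadjusted p = 0.00312, adjusted p = 0.518), and that of its partner Pccb was -0.88 (SE 0.26). Transcripts for the transfer of electrons from acyl-CoA dehydrogenases to the respiratory chain were also lower without overlap for Etfdh (-0.82, SE 0.19) and Etfa (-0.71, SE 0.24), and overlapped between the groups for Etfb, the partner of Etfa (-0.46, SE 0.28).

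The 3 further valine genes were lower too (28.2% of all genes were). Among them were Echs1, an enoyl-CoA hydratase, at -0.67 (SE 0.18) and Acad8, isobutyryl-CoA dehydrogenase, at -0.37 (SE 0.11). Dld, the E3 subunit shared by BCKDH and other dehydrogenase complexes, had 71.0, 56.7 and 56.0 FPKM in NC and 44.3, 32.1 and 33.3 FPKM in SFRP2-siRNA (log2 fold change -0.73, SE 0.19). All treated Dld values were below the NC range. Bckdk was lower without overlap, 25.9 ± 5.04 against 20.9 ± 1.82 FPKM (SD, n = 3 each, log2 fold change -0.29), though by -0.14 only when NC 1 was left out. Its groups were only 0.13 FPKM apart, with NC 2 at 22.95 and SFRP2-siRNA 3 at 22.83 FPKM. Ppm1k was near 1 FPKM in both groups, with 1.03 ± 0.176 and 1.08 ± 0.125 FPKM.

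Not every gene of the pathway was lower. Slc25a44, a mitochondrial carrier of branched-chain amino acids, had a log2 fold change of -0.45 (SE 0.17), whereas Slc7a5, an importer at the cell surface, had 0.43 (SE 0.22) with no overlap. Acat1, a thiolase that acts on isoleucine and ketone carbon, had -0.62 (SE 0.20). Bcat1 had 0.51 (SE 0.25) with overlapping groups. Of the regulators, Ppargc1a, a coactivator of mitochondrial genes, had -0.37 (SE 0.16) and Klf15, a transcription factor of amino acid breakdown, had 0.09 (SE 0.20), a sign that turned under 3 other scalings. The adjusted p of each was 0.518 or more.

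**Figure D4:**
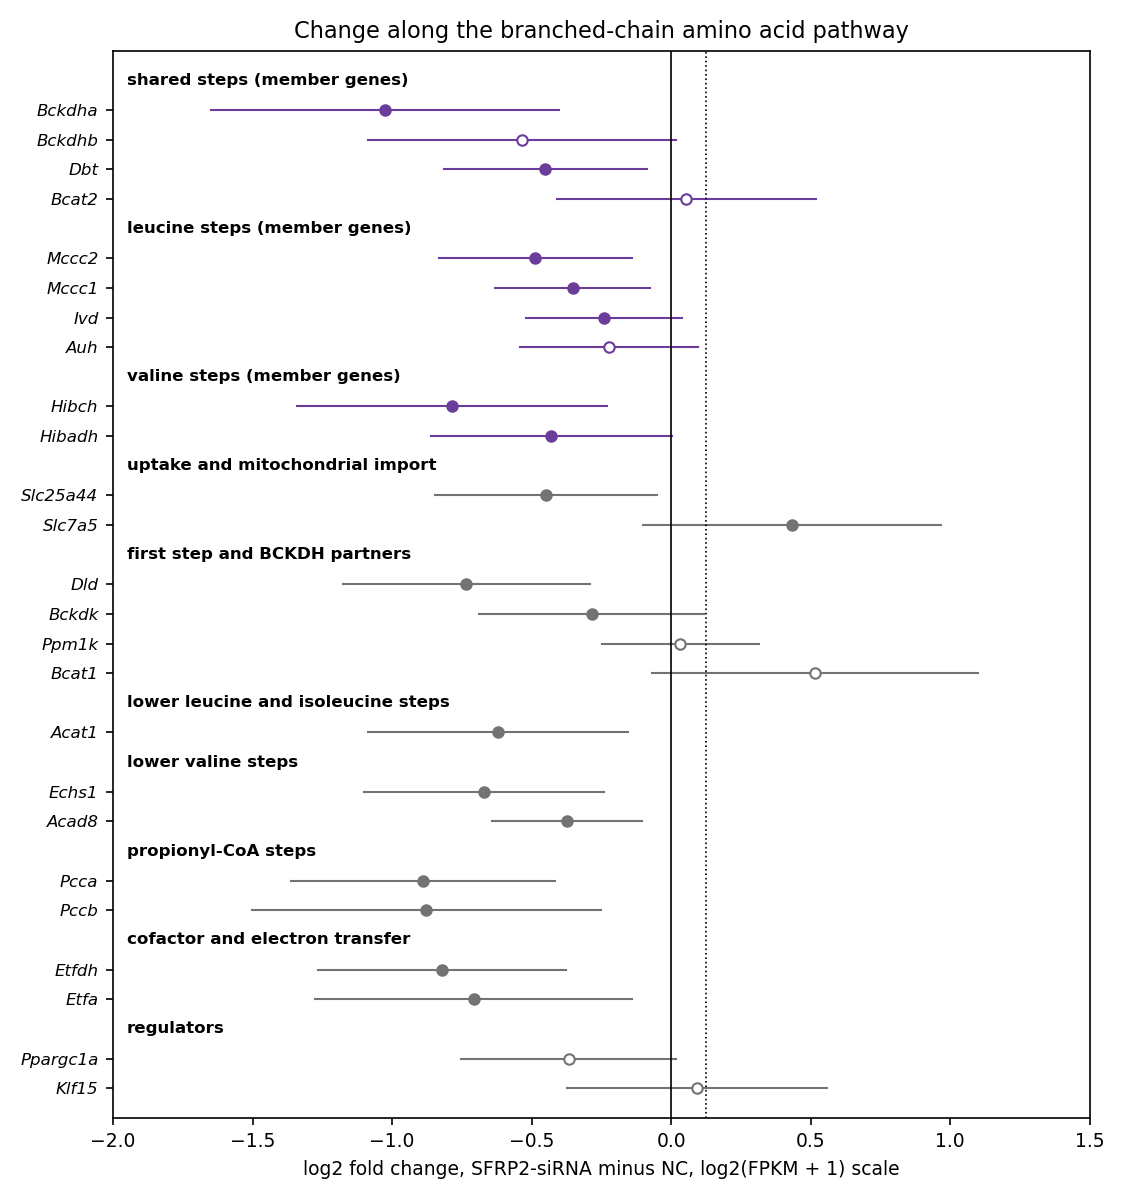
Log2 fold change, SFRP2-siRNA minus NC on the log2(FPKM + 1) scale, of the 10 genes (purple) and of other pathway genes named in the text (grey, mostly chosen for the smallest p in their step), with 95% limma intervals, filled where the groups do not overlap and open where they do. The dotted line is the all-gene median of 0.13, and Pcca at -0.89 and Pccb at -0.88 are the lowest of the grey genes.

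Other transcripts moved beside these. Of 12 nuclear-encoded mitochondrial genes outside the pathway, 10 were lower (28.2% of all genes), the same number without overlap (3.92% of all genes), with a median log2 fold change of -0.61. The mean log2 level of the 10 breakdown genes minus that of these 12 was -2.87, -2.78 and -2.80 in NC and -2.55, -2.70 and -2.87 in SFRP2-siRNA. The groups overlapped on this scale, with a difference of 0.11. Mitochondrially encoded transcripts took 35.8%, 22.2% and 17.4% of summed FPKM in NC 1, 2 and 3 and 16.6%, 11.8% and 13.8% in SFRP2-siRNA, so that NC 1 was again highest. All 16 of these genes were lower (28.2% of all genes), 9 without overlap (3.92% of all genes), with a median log2 fold change of -0.96. The part of mitochondrial transcripts as a whole in the values of the 10 was not tested.

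Cell type markers were followed as well, and none of the listed markers was at 0 in any library. Of 9 adipocyte markers, led in level by Fabp4, 8 were lower (28.2% of all genes). Their summed level was 1775 to 2177 FPKM in NC and 2487, 1347 and 943 FPKM in SFRP2-siRNA 1, 2 and 3. The highest adipocyte sum of the 6 libraries was in SFRP2-siRNA 1. All 10 macrophage markers, led by Lyz2, were higher in SFRP2-siRNA, 4 without overlap (861 to 1538 against 1728 to 2255 FPKM summed), and all 7 fibroblast markers, led by Col3a1, were, 5 without overlap (839 to 1893 against 2085 to 2171 FPKM). Of all genes tested, 71.8% had a positive log2 fold change and 13.9% were higher without overlap. All 8 skeletal muscle markers, led by Acta1, had higher means in SFRP2-siRNA, with overlapping sums of 3210 to 6362 and 4326 to 12072 FPKM. Keratinocyte (4213 to 7259 against 4025 to 7240 FPKM), sebaceous gland (led by Krt79, 114 to 284 against 127 to 162 FPKM) and endothelial sums (led by Cdh5, 59.3 to 88.1 against 59.9 to 101.1 FPKM) overlapped between the groups. The part of cell composition in the values of the 10 was not tested.

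**Figure D5:**
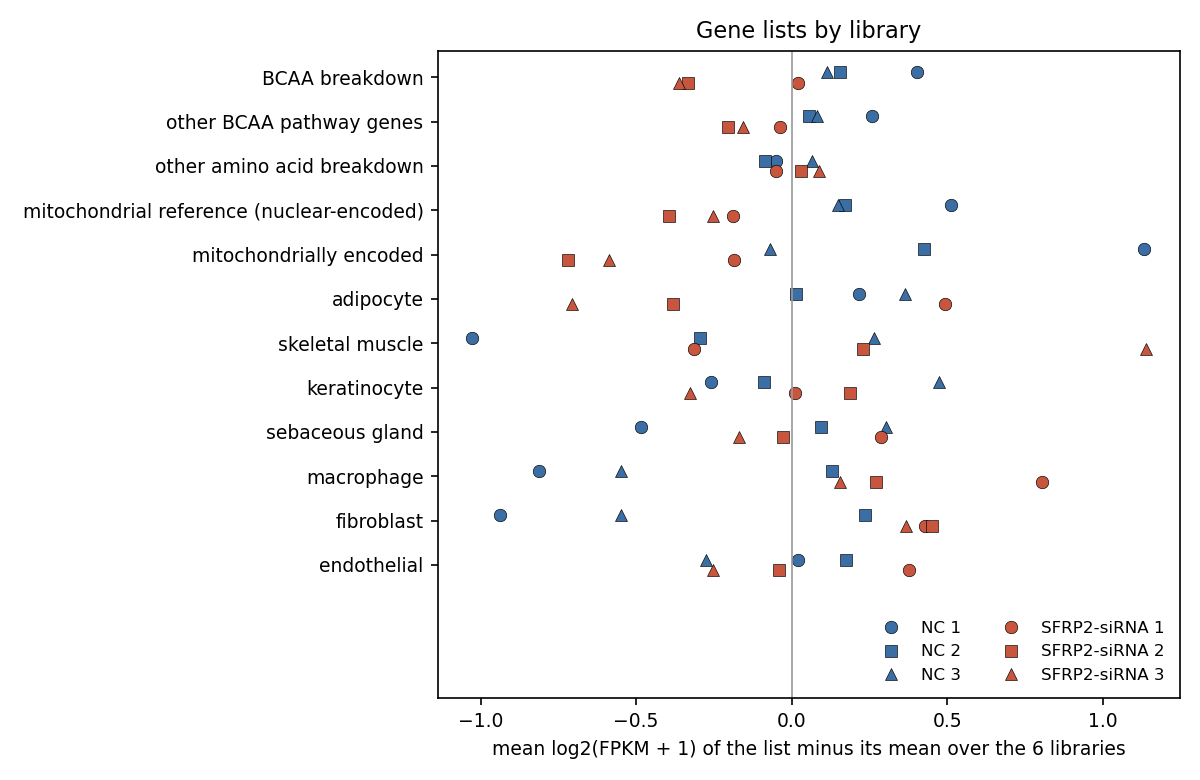
Mean log2(FPKM + 1) of each gene list in each library minus the mean of that list over the 6 libraries, NC in blue and SFRP2-siRNA in red, with 1 symbol per replicate number. The BCAA breakdown genes, the other BCAA pathway genes and the nuclear-encoded and mitochondrially encoded lists are lower in each treated library than in each NC library. The macrophage and fibroblast lists are higher there.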

How the data were processed

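Wound tissue RNA was sequenced by the authors as paired-end mRNA libraries, and they deposited 1 table of FPKM values. Per the labels, HISAT2, featureCounts and Subread were used, and the genome build, annotation and strand setting were not given in the sources used here. Groups came from the sample titles. Values were tested as log2(FPKM + 1) with limma 3.58.1 in R 4.3.3 (two-sided, intensity trend, Benjamini-Hochberg over the 16005 genes averaging 0.5 FPKM or more), called at an adjusted p under 0.05 and an absolute log2 fold change above 1, the thresholds of the study. Its DESeq2 was not run. In simulated data with 200 of 16005 genes changed by 2 (log2), a mean of 81.5% were recovered, with a mean of 4.2 false calls. The breakdown genes all changed by less than that, Bckdha the most with a log2 fold change of -1.03. Recovery of changes of their size was not tested, so the simulation does not show that such changes would have been called. Single values and pairs had exact permutation tests, whose smallest p is 0.1.

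Whole reads were recovered with GENCODE vM21 exon lengths in 98.6% of 20943 genes with a low value (tolerance 0.02 of a read), and limma voom on them was an added alternative that called 0 of 15821 genes. Of values of 1 to 20 reads 64.4% were even, so mates of a pair appear to have been counted singly. At 0.5 FPKM a gene had 64.5 reads (median). Gene positions are those of vM21 (GRCm38), and symbols matched 32582 of 33184 IDs.

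The members and lists were chosen with earlier results of these data known. The genes named were Sfrp2, the 10 members, Bckdk, Ppm1k, the 2 smallest p in each pathway group (Etfb was added after its values were seen), the marker of highest level in each list and the 5 genes most like the members, and some of these are not reported here. Replicate numbers did not pair the samples. Alternatives were other pseudocounts, filters, scalings and weights, a replicate block, and leaving out each library.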

Additional observations from a re-analysis of the deposited data

How the results depend on the processing

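No setting of the adjusted threshold called any of the 10 genes, and the lowest adjusted p of a member was 0.135 (limma with sample weights, Bckdha), while 5 passed an unadjusted p under 0.05. The number lower without overlap was 4 after rescaling to equal sums, 6 to 8 under the other scalings, and 7 to 9 when single libraries were left out, where 5.52% to 7.97% of all genes were (3.92% with all 6). Members at an unadjusted p under 0.05 numbered 2 (equal sums, where 1.92% of all genes were lower, and without SFRP2-siRNA 3, 1.89%) to 8 (median-of-ratios, 4.67%, without mitochondrially encoded genes, 4.16%, and sample weights, 5.1%), and 6 with voom (2.86%). The median log2 fold change of the 10 ranged from -0.59 to -0.35. That of the other pathway genes was -0.45 with median-of-ratios scaling and -0.44 with quantile normalization, and -0.38 to -0.20 when single libraries were left out (-0.20 without NC 1). The all-gene median moved from 0.0046 (median-of-ratios) to 0.20 (equal sums).

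Only Bcat2, Ppm1k and Klf15, all near 0, turned sign, and the cause was not tested. Without the mitochondrially encoded genes their log2 fold changes were -0.049, -0.022 and -0.0017, with median-of-ratios scaling -0.095, -0.046 and -0.041, and with quantile normalization -0.050, -0.043 and -0.028. Sample weights gave -0.14 (Bcat2) and -0.076 (Ppm1k). Leaving out single libraries gave -0.12 to 0.20 for Bcat2 and -0.033 to 0.092 for Ppm1k, Bcat2 being -0.033 without NC 2 and Ppm1k -0.0073 without SFRP2-siRNA 1. The Ivd value ranged from -0.39 to -0.15 over the alternatives and the Auh value from -0.35 to -0.13.

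Replicate numbers did not pair the samples (correlations of deviations between same-numbered libraries -0.047, -0.15 and 0.38). With the replicate block 0 of the 10 were called, their median was -0.44, 7 passed an unadjusted p under 0.05 (4.21% of all genes were lower at it) and the lowest adjusted p with limma was 0.250.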

Other observations

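Genes that break down other amino acids did not show the shift seen in the BCAA list. Of 26 listed, 19 were tested, of which 8 were lower and 11 higher in SFRP2-siRNA, with a median log2 fold change of 0.11 beside 0.13 over all genes. Among them, Gcdh of lysine breakdown was lower without overlap, and Shmt2, the mitochondrial serine hydroxymethyltransferase, was higher without overlap. The mean log2 level of the 10 BCAA genes minus that of this list was 1.52, 1.30 and 1.11 in NC and 1.14, 0.70 and 0.62 in SFRP2-siRNA, where SFRP2-siRNA 1 lay within the NC range, a difference of -0.49.

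Decr1, a dienoyl-CoA reductase of fatty acid oxidation, and Mecr, an enoyl reductase of mitochondrial fatty acid synthesis, followed the mean of the 10 closely, as did Hspa9, a mitochondrial chaperone, and Clstn3 (Pearson correlation 0.993 to 0.998 over 6 libraries). Decr1 had 56.4, 43.0 and 39.8 FPKM in NC and 33.9, 20.3 and 19.6 FPKM in SFRP2-siRNA. Mecr had 33.8, 21.9 and 20.45 FPKM in NC and 16.3, 9.73 and 10.02 FPKM in SFRP2-siRNA. In both, all treated values lay below all NC values, and NC 1 was highest, as in 8 of the 10 BCAA genes. These genes were picked for their likeness, so their values are a description.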
